A study of Mus musculus with 12 samples.

Results

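The RNA that an m6A antibody left unbound was compared between Mettl3-cKO and wild-type (WT) kidneys, on 3 samples of each genotype. These 6 supernatant samples are all those labelled Sup, out of 12 samples in the series, and they were chosen by that label and by genotype. All mice were male C57BL/6 animals of 6 to 8 weeks, and all, the WT mice included, had been injected intraperitoneally with glyoxylate once a day over 7 days (100 mg/kg, in a volume of 200 µl) to induce calcium oxalate nephrocalcinosis. The WT group carries no stated allele, and the cKO group is labelled METTL3-cKO, with no Cre driver or target cell named. Kidneys of saline-injected mice were not analysed here. The labels call the samples of a genotype biological replicates. Total kidney RNA was incubated with a rabbit polyclonal antibody against m6A, and the RNA recovered from the supernatant was labelled with Cy3 while the bound RNA of the same sample was labelled with Cy5, so that both fractions lay on 1 array. The protocol describes the supernatant as the unmodified RNA, whereas the antibody field of the same samples reads "none (input)".

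N6-methyladenosine (m6A) is a methyl mark on adenosines of messenger and long non-coding RNA. METTL3 is the catalytic subunit of the writer complex, which places the mark, and demethylases and reader proteins remove and bind it. A transcript molecule with the mark is captured by the antibody, and a molecule without it stays in the supernatant, so the signal of a gene in the supernatant depends on both the amount of its RNA and the part that is unmodified. In a whole kidney, fewer cells of a type and less RNA per cell cannot be told apart.

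The values are log2 of the deposited green signal, processed by the scanner software, minus the 75th percentile of the same array. A value of 0 is therefore the 75th percentile, and a difference of 1 is a 2-fold difference in signal. Values by array are given in order of replicate number. Of 60706 probes, 31174 were kept because they were well above background on at least 3 of the 6 arrays. An accession is given for only 50 probes, which have 10 spots each. A gene symbol was found for 45, and 34 of those genes passed the filter. The other probes are known by identifier alone, so Mettl3 itself, the other m6A writers, erasers and readers and the kidney segment markers could not be looked up. Of 65 marker genes of kidney and other cell types, 1 is named, Mzb1, a chaperone of antibody-secreting cells. The kidney label was therefore not checked against its markers.

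The supernatant was dimmer on WT arrays 1 and 3 than on the other 4. In WT, 38.5%, 52.5% and 31.7% of probes were well above background, in order of replicate number, against 57.0%, 50.0% and 53.6% in cKO. The genotype means were 40.9% ± 10.6 (SD, n = 3) and 53.5% ± 3.51 (SD, n = 3). The difference of 12.6 percentage points had p = 0.2 in an exact two-sided permutation test, where 0.1 is the smallest p that 3 against 3 allows. WT array 2 lay 0.980 percentage points below the cKO mean. In the bound RNA of the same samples the share was 52.2% to 56.2% on all 6 arrays. By the scan identifier in the file headers, WT array 2 and the 3 cKO arrays were read in one scan (scan 1) and WT arrays 1 and 3 in another (scan 2). The headers give the brightness of negative control spots in the supernatant channel as 39.6 and 43.1 on WT arrays 1 and 3 and 22.7 to 24.5 on the 4 arrays of scan 1. Genotype and scan overlap in part, so differences against WT array 2 alone are given beside those over all WT arrays for the tested probes and genes described with their values.

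**Figure D1:**
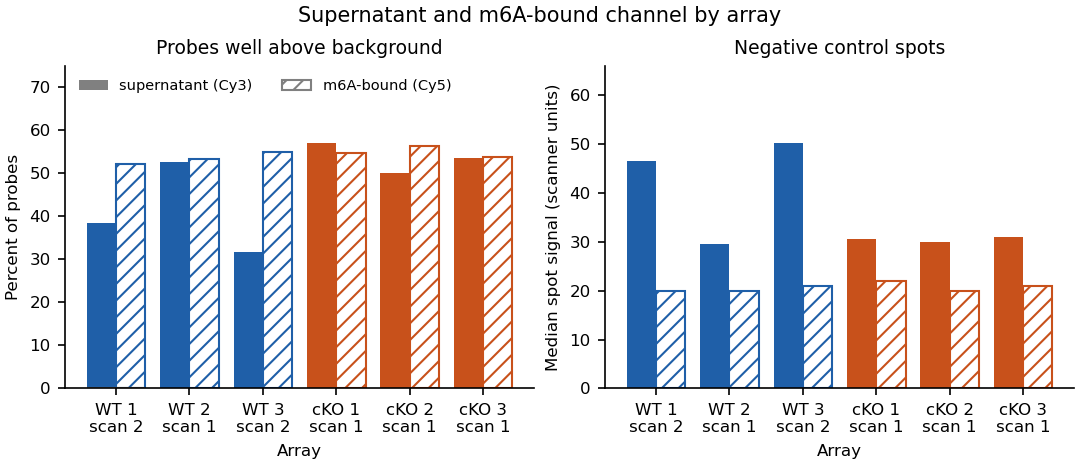
Left, percent of 60706 probes well above background on each array, and right, median signal of the negative control spots in scanner units, with filled bars for the supernatant and hatched bars for the m6A-bound fraction. In the supernatant, WT 1 (38.5%) and WT 3 (31.7%) stand below the 4 arrays of scan 1, which lie between 50.0% and 57.0%.

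WT arrays 1 and 3 also detected fewer of the probes found in cKO. Of 29357 probes well above background on all 3 cKO arrays, 28652 (97.6%) were so on WT array 2, 23166 (78.9%) on WT array 1 and 19225 (65.5%) on WT array 3. A set of 661 probes was well above background on all 3 cKO arrays and on 0 WT arrays, and no probe showed the reverse. The median SD over 3 replicates was 0.344 in WT and 0.206 in cKO. Over the kept probes, WT array 3 correlated with the other 5 arrays at r = 0.953 to 0.957. WT array 2 correlated with the cKO arrays at 0.966 to 0.979 and with WT array 1 at 0.973, WT array 1 correlated with the cKO arrays at 0.966 to 0.976, and the cKO arrays correlated with each other at 0.982 to 0.986. These are correlations across probes of arrays on one platform, and by this measure only WT array 3 lay apart from the rest.

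Over all 31174 probes the median difference (cKO minus WT) was 0.00, with quartiles of -0.19 and 0.26. Each array was first scaled to a percentile of its own signal, so the centre of the differences depends on that scaling. The median was 0.23 with spike-in scaling and -0.24 with array median scaling. It therefore cannot show whether the unbound RNA changed as a whole. With the scaling used here, 3.33% of probes differed by more than 1 on the log2 scale. The difference between genotypes went with brightness. In the dimmest quartile of probes the median difference was 0.26, and against WT array 2 alone it was -0.03. In the brightest quartile the medians were -0.09 and -0.06. Replicate spread was also largest among dim probes, with a median SD of 0.556 in WT and 0.267 in cKO. The part of background and scan in the higher calls below was not tested beyond these values and the fits with scan.

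**Figure D2:**
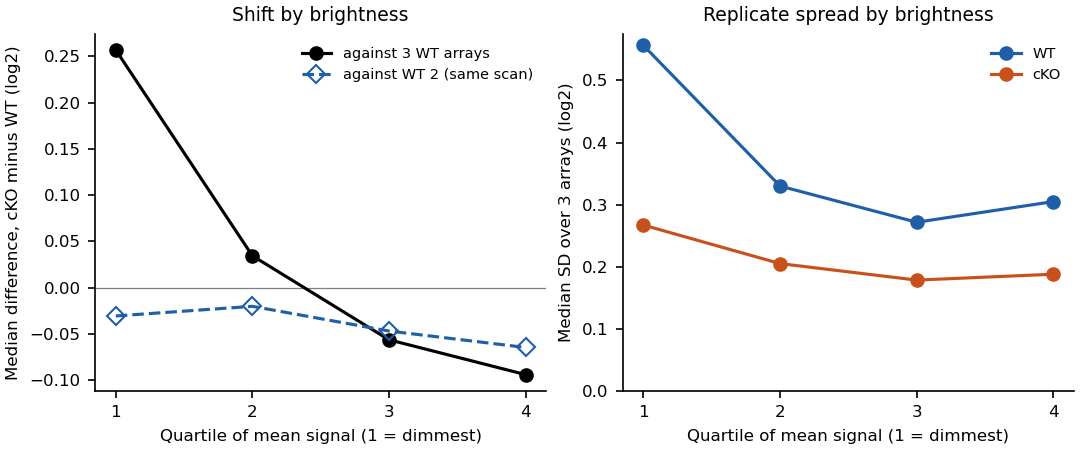
Left, median difference in the supernatant (cKO minus WT, log2) in quartiles of mean signal, against the 3 WT arrays (filled) and against WT array 2 alone (open). Right, median SD over the 3 arrays of each genotype (log2). Against 3 WT arrays the dimmest quartile is shifted by 0.26, and against WT array 2 by -0.03.

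With limma, 68 probes (0.218% of 31174) passed a Benjamini-Hochberg adjusted p under 0.05, 62 of them higher in cKO (0.199%) and 6 lower (0.0192%). None of the 68 has a gene name. The median absolute difference of the 62 was 2.19 over all WT arrays and 2.01 against WT array 2. For the 6 it was 2.19 and 2.12. WT array 2 was among the arrays by which these probes were picked. At an unadjusted p under 0.05 there were 3209 probes (10.3%), 2212 higher (7.1%) and 997 lower (3.2%). With scan as a block 1 probe passed, and within scan 1, where the single WT array is assumed to vary like the cKO arrays, 159 passed, of which 55 were among the 68. Leaving out the WT arrays in turn gave counts of 30, 7 and 100, and leaving out the cKO arrays in turn gave 0, 2 and 2, so each array but WT array 3 moved the count down by more than 1.5 times. Without cKO array 1, 1928 of 31174 probes had an unadjusted p under 0.05, against 3209 with all 6 arrays. A share of 0.05 of probes is expected under that threshold where the genotypes do not differ. The share of higher probes among those called was 91.2% here, 77.6% with scaling to the array median, 77.8% after normexp, loess and Aquantile, and 75.2% with low values raised to the dimmest detected signal. It was 83.8% with trended and robust variance, 85.4% without dye normalisation and 87.8% with quantile normalisation. Higher shares were 92.9% with the percentile over probes detected on all arrays, 94.6% with normexp and 96.5% with spike-in scaling. Leaving only probes well above background on all 6 arrays gave 68 calls again, but among 18851 probes tested. Of these calls 49 were higher and 19 lower, and 24 were shared with the first 68.

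The filter counts arrays regardless of genotype, so a probe could enter through the cKO arrays alone. All 62 higher probes were well above background on the 3 cKO arrays, but 28 were so on 0 WT arrays, 14 on 1 or 2 and 20 on all 6. For the 20, which were measured in both genotypes, the median fold on the deposited signal was 4.43 and the range 3.13 to 16.9. For the 28, WT has only a bound. After normexp, loess and Aquantile, with WT values under the dimmest detected signal raised to it, they were at least 1.03-fold to 2.68-fold higher in cKO, with a median of 1.29-fold, and for 8 the bound was 1.5-fold or more. This scale is open to dye bias, since no dyes were swapped. All 6 lower probes were well above background on the 3 WT arrays, 4 of them on the 3 cKO arrays too and 2 on 1 cKO array only. For the 4, the median fold on the deposited signal was 4.14 and the range 2.88 to 4.78.

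The 2 higher probes with the smallest p were measured on both sides. ASMM10EP3A100173013 had values of -0.81, -0.50 and -0.29 in the WT arrays, against 4.00, 3.26 and 3.39 in the cKO arrays. The 3 WT values lay close together, and the lowest cKO value was far above them. Its difference was 4.08 ± 0.264 (SE), with an adjusted p of 0.00717 in limma, and against WT array 2 it was 4.05. ASMM10EP3A109607220 had values of -0.46, -0.33 and -0.38 in WT, against 2.01, 2.08 and 1.96 in cKO, nearly flat within each genotype. Its difference was 2.41 ± 0.184 (SE), with an adjusted p of 0.0104 in limma, and against WT array 2 it was 2.35. On the scale of normexp, loess and Aquantile the differences of the pair were smaller, 2.73 and 1.44 (adjusted p = 0.0083 and 0.0081 in limma). With scan as a block the adjusted p of the pair was 0.0950 and 0.106, and within scan 1 it was 0.00992 and 0.0182.

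Among the lower probes, ASMM10EP3A100045629 had values of 5.38, 5.24 and 5.67 in WT, against 3.08, 3.03 and 3.61 in cKO. The groups did not overlap, and the difference was -2.19 ± 0.239 (SE), with an adjusted p of 0.0208 in limma. ASMM10EP3A100191347 had values of 1.68, 1.59 and 1.70 in WT, against -2.96, -3.39 and -1.38 in cKO. It was well above background on all 3 WT arrays and on 1 of 3 cKO arrays, and its difference was -4.23 ± 0.464 (SE), with an adjusted p of 0.0208 in limma. On the scale of normexp, loess and Aquantile that difference was -1.63. Against WT array 2 the differences of the pair were -2.00 and -4.17, close to those over all WT arrays. With scan as a block, which gives the same differences with larger SEs (0.335 and 0.700), neither passed (adjusted p = 0.225 for both in limma), and within scan 1 the adjusted p was 0.0422 and 0.0508. By identifier prefix, 66 of the 68 probes were among 25859 tested probes named ASMM10EP3A (0.255%) and 2 among 3339 named ASMM10EP3B (0.0599%). No probe of 1926 named ASMM10SM1 passed in limma, 181 had an unadjusted p under 0.05, and their median difference was -0.21, and -0.24 against WT array 2.

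The bound RNA of the same samples was set beside these probes. Of 61 higher probes also tested in the bound fraction, 51 were higher there, against 52.2% of all 14297 probes higher in the supernatant, and 41 had groups that did not overlap, against a background of 6.93% of probes in that direction. The threshold was passed there by 10, against a background of 0.0686%. Some of these higher probes were detected on 0 WT arrays in the supernatant and entered through the cKO arrays alone. Among the 20 detected on all 6 supernatant arrays, 17 were higher in the bound RNA. The background shares cover probes with differences of any size, whereas the called probes were picked for large ones, so the 2 are not alike. All 6 lower probes were lower in the bound RNA, where 52.5% of all probes lower in the supernatant were lower too, and 2 passed there, against 0.0358% of probes. For ASMM10EP3A100173013 the bound difference was 3.18, with an adjusted p of 0.00864 in limma, and for ASMM10EP3A109607220 it was 0.71, with an adjusted p of 0.282. Both fractions lie on 1 array and come from 1 extract, so they are not independent replicates. Whether the supernatant and bound differences were unequal was tested within each array. Of 29112 probes kept in both channels, 1 passed (0.00344%), and 4672 (16%) had an unadjusted p under 0.05 in limma. With only probes detected on all 6 arrays in both channels 154 passed, 137 higher and 17 lower. That smaller tested set was drawn from the 18851 probes detected on all 6 arrays in the supernatant. With scan as a block 0 passed (3783 at an unadjusted p under 0.05), within scan 1 0 passed (5136), and without each array in turn 0 passed (2498 to 5976).

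**Figure D3:**
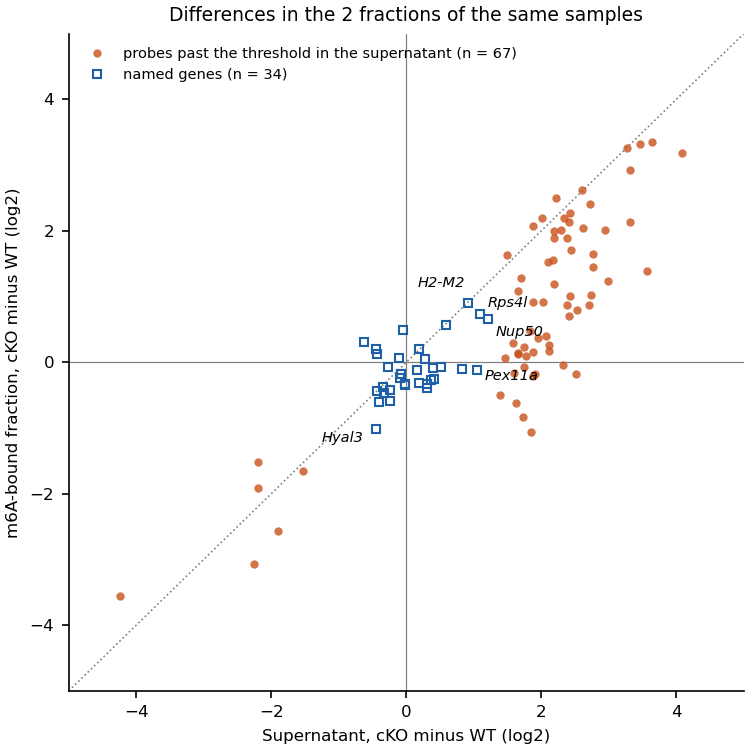
Difference between cKO and WT in the supernatant (horizontal, log2) and in the m6A-bound RNA (vertical, log2), for 67 probes past the threshold in the supernatant that were also tested in the bound RNA (dots) and for 34 named genes (squares), with a dotted line of equal difference. Most dots lie on the same side of 0 in both fractions, and Pex11a lies at 1.04 in the supernatant and at -0.12 in the bound RNA.

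None of the 34 named genes passed the threshold in limma. The highest differences were those of Nup50, Rps4l, Pex11a and H2-M2, with folds of 2.30, 2.13, 2.06 and 1.89 in favour of cKO, and in each of them all 3 cKO values lay above all 3 WT values. At an unadjusted p under 0.05 there were 7 (20.6%, against 10.3% of all probes), 6 higher and 1 lower. In 10 genes (29.4%) the 3 cKO values did not overlap the 3 WT values, 8 higher and 2 lower, against 16.7% of all probes (9.37% higher and 7.29% lower). With so few named genes these shares say nothing particular about them. The differences ran from -0.63 to 1.20, with a median of -0.01, and 16 were above 0 and 18 below. The 10 spots of a named probe had a median SD of 0.0993 within an array, which is smaller than the spread between arrays. In simulated data of 31174 probes, with 100 changed at each fold, limma recovered 7% of 2-fold and 89% of 4-fold differences. In that setting a 2-fold difference would mostly be missed. These shares cover all changed probes of the simulation and are not those of the named genes, whose probes have 10 spots.

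Rps4l and Nup50 had the smallest p of all named genes. Rps4l is a copy of the gene for ribosomal protein S4, and its record is annotated as a non-coding transcript. Its values were 4.21, 3.84 and 3.91 in the WT arrays, against 4.99, 5.01 and 5.22 in the cKO arrays. All cKO values lay above all WT values by a wide margin compared with the range within each genotype. The difference was 1.09 ± 0.204 (SE), a fold of 2.13, with a 95% interval of 0.62 to 1.56 and an adjusted p of 0.0944 in limma. Against WT array 2 alone it was 1.23. A related ribosomal transcript could share the probe's sequence, which was not checked here. The bound RNA differed by 0.74 (adjusted p = 0.306 in limma), and the supernatant minus bound difference was 0.35 (adjusted p = 0.437).

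Nup50, a nucleoporin that takes part in import through the nuclear pore, had values of -0.12, -0.73 and -0.33 in the WT arrays, against 0.76, 0.66 and 1.01 in the cKO arrays. The groups did not overlap, and WT array 2 was the lowest of all. The difference was 1.20 ± 0.232 (SE), a fold of 2.30, with a 95% interval of 0.67 to 1.74 and an adjusted p of 0.104 in limma. Against WT array 2 it was 1.54. Over all alternatives tried, the difference ran from 0.52 to 1.54 for Nup50 and from 0.85 to 1.33 for Rps4l. The bound RNA differed by 0.66 for Nup50 (adjusted p = 0.434 in limma), and its supernatant minus bound difference was 0.55 (adjusted p = 0.280). Both genes passed under some settings, Rps4l after normexp, loess and Aquantile (adjusted p = 0.00843) and with spike-in scaling (0.0487), Nup50 with spike-in scaling (0.0447) and with trended and robust variance (0.0353). Over all alternatives tried, the adjusted p ran from 0.00843 to 0.430 for Rps4l and from 0.0307 to 0.434 for Nup50. Rps4l is the only named member of the list of ribosomal protein genes, so nothing can be said of the ribosomal proteins as a group. Taf1a, a subunit of the factor that starts transcription of ribosomal RNA genes, was well above background on 1 WT array and all 3 cKO arrays, with values of -1.81, -1.88 and -1.56 in WT, against -1.29, -1.82 and -1.29 in cKO that overlapped. Its difference was 0.28 (adjusted p = 0.756 in limma), and against WT array 2 it was 0.41.

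Class I histocompatibility genes present peptides or related ligands on the cell surface. H2-M2 and H2-Q7, both of the non-classical class Ib group, were the 2 named members out of 17 genes in that list, and neither passed in limma. H2-M2 had values of 3.73, 3.45 and 3.78 in the WT arrays, against 4.88, 4.33 and 4.50 in the cKO arrays. H2-Q7 had values of 5.58, 5.20 and 5.42 in WT, against 6.01, 5.73 and 6.23 in cKO. In both genes each cKO value lay above each WT value, and WT array 2 was the lowest. The differences were 0.92 ± 0.224 (SE, adjusted p = 0.183 in limma) for H2-M2 and 0.59 ± 0.221 (SE, adjusted p = 0.396) for H2-Q7. Against WT array 2 they were 1.12 and 0.80, and both stayed above 0 under every alternative tried. The bound RNA differed by nearly the same amount, 0.90 for H2-M2 and 0.57 for H2-Q7, neither past the threshold (adjusted p = 0.176 and 0.420 in limma). The supernatant minus bound difference was 0.02 in both. Class I genes are close copies of each other, so the probes may also read related transcripts.

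**Figure D4:**
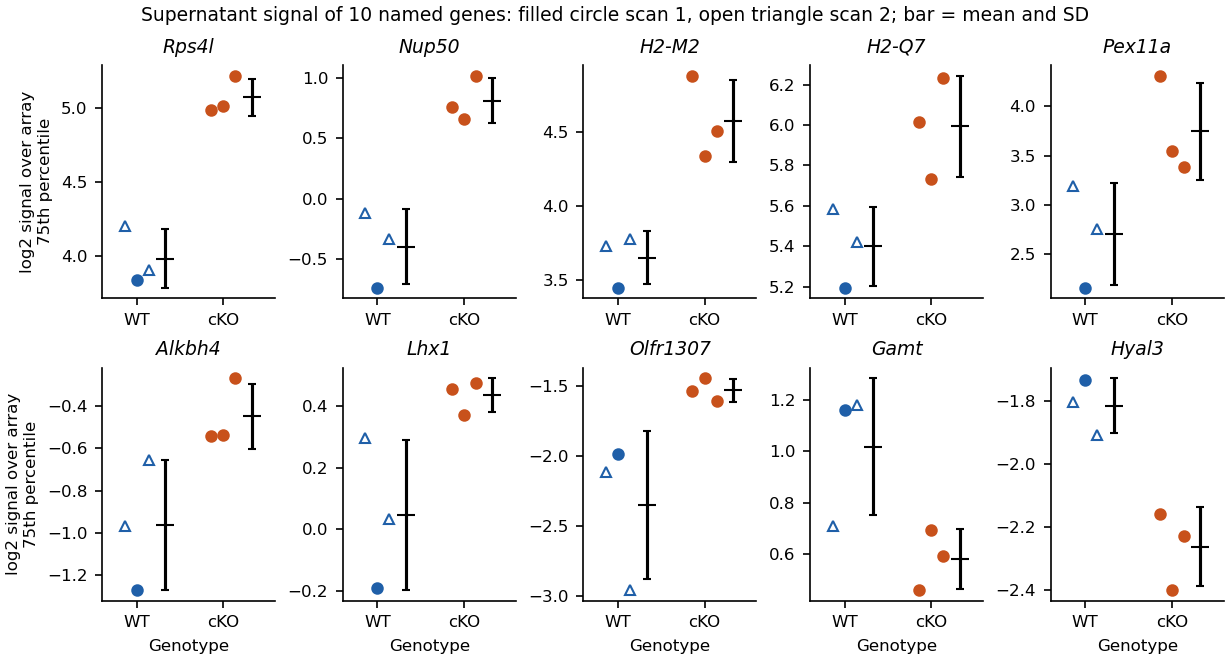
Supernatant signal (log2 over the array's 75th percentile) of the 10 named genes whose groups did not overlap, on each array, with circles for scan 1, triangles for scan 2 and bars for the mean and SD of 3 arrays. Rps4l lies between 3.84 and 4.21 in WT and between 4.99 and 5.22 in cKO, and Gamt and Hyal3 are the 2 genes that lie lower in cKO.

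Fatty acid oxidation and peroxisome genes were named for 4 of 30 members, and none passed in limma. Their median difference was 0.06, beside 0.00 over all probes. Pex11a, which promotes peroxisome division, had values of 3.19, 2.16 and 2.75 in the WT arrays, against 4.31, 3.54 and 3.38 in the cKO arrays. The groups did not overlap, though the lowest cKO value was only just above the highest WT value. The difference was 1.04 ± 0.340 (SE), with a 95% interval of 0.26 to 1.82 and an adjusted p of 0.319 in limma. Against WT array 2 it was 1.58. In the bound RNA the difference was -0.12 (adjusted p = 0.896 in limma), and the supernatant minus bound difference was 1.17 ± 0.239 (SE, adjusted p = 0.131), which did not pass.

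The other 3 members overlapped between genotypes, and in each of them WT array 2 had the lowest of the 6 values. Ppara, the nuclear receptor that activates genes of fatty acid oxidation, had values of 2.91, 1.37 and 2.84 in WT, against 3.02, 2.24 and 2.96 in cKO. Cpt1a, which makes the acylcarnitines that carry fatty acids into mitochondria, had values of 3.27, 1.71 and 3.08 in WT, against 2.89, 2.42 and 2.01 in cKO. Acaa2, the mitochondrial thiolase of the last step of beta-oxidation, had values of 6.02, 5.15 and 5.87 in WT, against 5.31, 5.22 and 5.31 in cKO. In all 3 genes WT arrays 1 and 3 were close to each other and WT array 2 lay apart below them. The differences were 0.36, -0.24 and -0.40 (adjusted p = 0.861, 0.924 and 0.675 in limma), and against WT array 2 alone they were 1.36, 0.74 and 0.13. The sign for Cpt1a and Acaa2 thus turned with the choice of WT arrays, and that of Ppara turned to -0.14 without WT array 2.

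Among reference and glycolysis transcripts, the means of Actb, Gapdh and Gpi1 were lower in cKO, and their cKO means lay closer to WT array 2 than to the WT mean. Actb, cytoplasmic actin, had values of 4.82, 4.32 and 4.38 in WT, against 4.02, 3.81 and 4.38 in cKO, a difference of -0.44 ± 0.241 (SE, adjusted p = 0.604 in limma) and of -0.25 against WT array 2. The Gapdh control probes, whose names end in 3 and 5, differed by -0.31 and -0.34, and against WT array 2 by -0.08 and -0.10. The Pgk1 control probe whose name ends in 3 differed by -0.01, and against WT array 2 by 0.22, while the one that ends in 5 was well above background on 3 of 6 arrays. Gapdh and Pgk1 are control spots and entered no test. Gpi1, glucose-6-phosphate isomerase, was the 1 named member of 16 glycolysis genes among the tested probes, with values of 6.91, 6.44 and 6.93 in WT, against 6.64, 6.27 and 6.66 in cKO. Its difference was -0.24 (adjusted p = 0.814 in limma), and against WT array 2 it was 0.09.

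Higher values in cKO without overlap were also seen for Alkbh4, Lhx1 and Olfr1307, which did not pass. Alkbh4, a dioxygenase of the AlkB family, had values of -0.97, -1.27 and -0.65 in WT, against -0.54, -0.54 and -0.27 in cKO, and was detected on 2 of 3 WT arrays. Lhx1, a homeobox factor of kidney development, had values of 0.30, -0.19 and 0.03 in WT, against 0.46, 0.37 and 0.48 in cKO. Olfr1307, an olfactory receptor gene, had values of -2.12, -1.99 and -2.96 in WT, against -1.54, -1.45 and -1.61 in cKO and was detected on 1 WT array and all 3 cKO arrays. The differences were 0.51 (adjusted p = 0.495 in limma), 0.39 (0.587) and 0.82 (0.352), and against WT array 2 they were 0.82, 0.63 and 0.45.

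Lower values in cKO without overlap were seen for Gamt and Hyal3. Gamt, which makes creatine from guanidinoacetate, had values of 0.71, 1.16 and 1.18 in the WT arrays, against 0.46, 0.69 and 0.59 in the cKO arrays. The gap between the groups was small, since WT array 1 lay just above cKO array 2. Its difference was -0.43 ± 0.215 (SE, adjusted p = 0.553 in limma), and against WT array 2 it was -0.58. In the bound RNA it was 0.13 (adjusted p = 0.841 in limma). Hyal3, of the hyaluronidase family, had values of -1.80, -1.73 and -1.91 in WT, against -2.16, -2.40 and -2.23 in cKO and was dim, detected on 1 WT array and 2 cKO arrays. Its difference was -0.45 ± 0.191 (SE, adjusted p = 0.475 in limma) and -0.53 against WT array 2, and in the bound RNA, where it was detected on all 6 arrays, -1.02 (adjusted p = 0.174).

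The named antioxidant (2 of 24), lipid transport and membrane traffic (3 of 16) genes overlapped between genotypes, and none passed in limma. Prdx2, a peroxiredoxin that reduces hydrogen peroxide, had values of 5.96, 5.89 and 6.34 in WT, against 5.94, 5.72 and 5.74 in cKO. Gsta4, a glutathione transferase for lipid peroxidation products, had values of 1.92, 1.21 and 1.93 in WT, against 1.52, 1.20 and 2.10 in cKO. Apoe, the lipid-carrying apolipoprotein E, had values of 7.17, 6.86 and 7.38 in WT, against 7.02, 6.42 and 6.96 in cKO. For these 3 genes the differences were -0.27, -0.08 and -0.34 (adjusted p = 0.753, 0.973 and 0.723 in limma), and against WT array 2 they were -0.09, 0.40 and -0.06. Rab5a, the small GTPase of early endosomes, had values of 1.02, 0.40 and -0.18 in WT, against 0.93, 0.17 and 0.60 in cKO. Tm9sf1, a transmembrane protein of the TM9 family, had values of 4.31, 3.91 and 4.21 in WT, against 4.28, 3.91 and 4.18 in cKO. Cav2, a caveolin, had values of 0.07, -0.50 and -1.92 in WT, against -1.48, -1.75 and -1.01 in cKO and spanned 1.99 among the WT arrays. These were the 3 named members of the membrane traffic list, and Cav2 had the lowest difference of the 34 genes, -0.63 ± 0.475 (SE), with an adjusted p of 0.732 in limma. Against WT array 2 the differences of Rab5a, Tm9sf1 and Cav2 were 0.17, 0.22 and -0.92, where those of Rab5a and Tm9sf1 over all WT arrays were 0.15 and -0.02 (adjusted p = 0.946 and 0.993 in limma).

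Several genes were near background. E2f1, a transcription factor of S phase genes and the only tested member of the cell cycle list, had values of -2.81, -2.10 and -1.42 in WT, against -2.69, -2.69 and -2.30 in cKO and was detected on 1 WT array and 2 cKO arrays. Mzb1 had values of -2.73, -2.46 and -2.18 in WT, against -1.96, -1.98 and -2.50 in cKO, and Cep41, a centrosomal protein, had values of -2.38, -1.34 and -1.81 in WT, against -1.34, -1.60 and -1.35 in cKO. Both were detected on 1 WT array and all 3 cKO arrays, and the groups of all 3 genes overlapped (adjusted p = 0.738, 0.753 and 0.694 in limma). The differences were -0.45, 0.31 and 0.41, and against WT array 2 they were -0.47, 0.31 and -0.10. Of the 11 named genes that did not pass the filter, Mbp, myelin basic protein, was detected on 0 WT arrays and 2 cKO arrays, with values of -3.78, -3.85 and -3.08 in WT, against -2.82, -2.75 and -2.50 in cKO, and was at least 1.05-fold higher in cKO on the scale of normexp, loess and Aquantile. Trp53rka, a kinase gene, was detected on 0 WT arrays and 1 cKO array and has no fold. Il2, the T cell cytokine, was detected on 1 array of each genotype. The other 8 were not well above background on any array. The remaining 8 tested genes (Bambi, Carhsp1, Dnajc11, Duox1, Gsdmd, Lhfp, Olfr166 and Uhrf1bp1l) all overlapped between genotypes, with differences from -0.35 to 0.30 and adjusted p from 0.795 to 0.998 in limma.

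**Figure D5:**
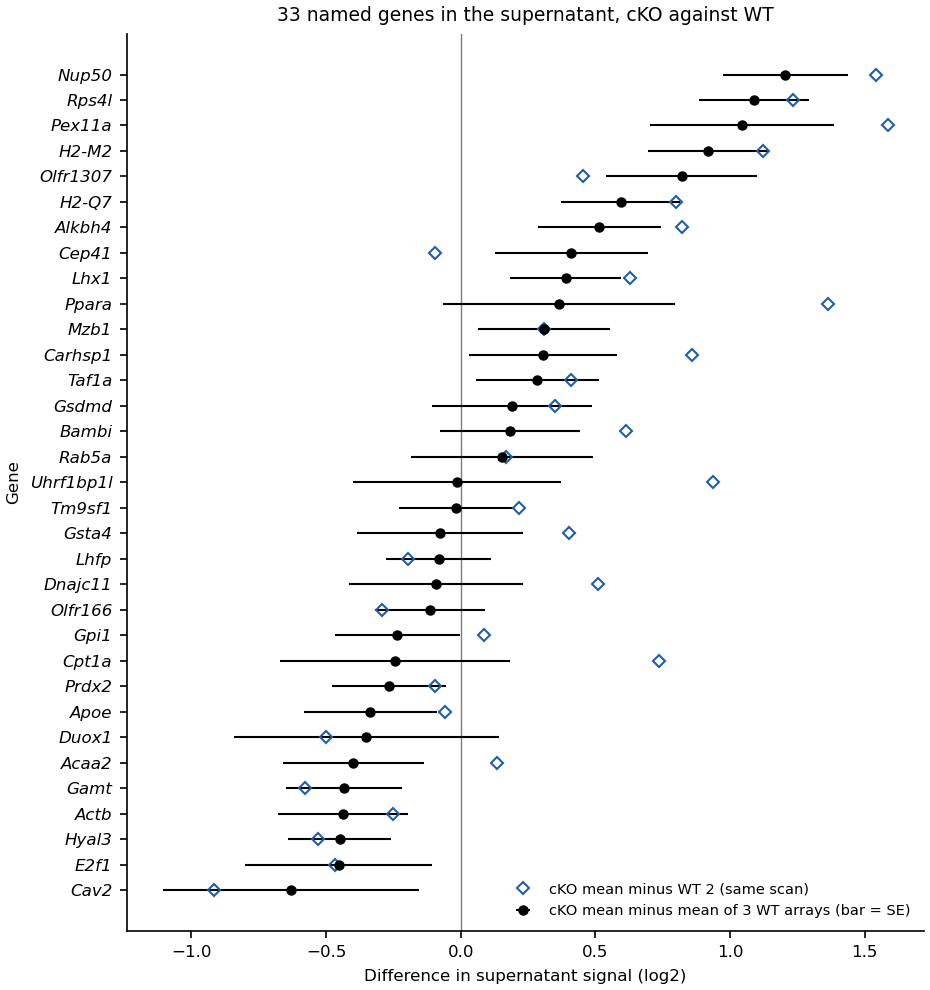
Difference in supernatant signal (cKO minus WT, log2) of 33 named genes tested, with filled points and SE bars against the mean of the 3 WT arrays and open diamonds against WT array 2, which was read in the same scan as the cKO arrays. Nup50, Rps4l, Pex11a and H2-M2 lie highest, and the diamonds of Ppara (1.36), Cpt1a (0.74) and Uhrf1bp1l (0.94) lie far to the right of their points.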

How the data were processed

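Both colours of 6 Agilent arrays were deposited as linear scanner intensities of 62976 spots each, made with Agilent Feature Extraction 11.0.1.1, per the submitters' processing notes. Per the file headers, the intensity used here, the processed signal, is background-subtracted and dye-normalised by the authors' software. The dyes were not swapped. Saturated spots and arrays with identical values were not found.

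Fits were run with limma 3.58.1 under R 4.3.3, and files were read with the data.table package, version 1.17.8. The fits left out control spots, outlier spots, 102 spike-in probes and 15 negative probes. Before that, each array's 75th percentile was subtracted from the log2 value of each spot. The percentile was taken over all spots but the control spots, with the outlier, spike-in and negative spots still included. The scaled values were then averaged over the spots of each probe, without outlier spots. Kept were probes that the software marked as well above background on 3 or more of the 6 arrays, where a probe with 10 spots needed over 0.5 of them. Genotypes were compared by two-sided tests in lmFit and eBayes, and p-values were adjusted by Benjamini-Hochberg over all kept probes. The difference between fractions was fitted on supernatant minus bound values of each array, scaled alike. Per-array shares were compared with exact permutation tests. The number of arrays limits the precision.

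A RefSeq table (GRCm38.p6) gave symbols for 45 of 50 accessions, and no coordinates were taken from it. The file headers name mm9 as the build of the array design. Probe sequences were not used here. The values of 1 tested gene are not reported here, though it is counted among the 34. The fit was tested on simulated data with 100 probes changed at each of 2 fold sizes, and 8 false calls were made among 31174.

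The members and gene lists were chosen with earlier results of these data known. Of 9 gene lists, 7 had a named member, and the lists of m6A machinery and kidney injury had none. The genes described with values were those past the threshold, filled up by smallest p to 8 per direction, members of the lists, genes detected on 0 or 1 array of a genotype and reference transcripts. Unnamed probes are the 2 of smallest p per direction.

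Alternatives were normexp (offset 50, planned on the spot signal and run on the median signal), other scalings, filters and variance models, scan and replicate number as blocks, and leaving out each array. The scan identifier of the headers stands for the planned slide, since the headers do not say how many slides were used. The alternatives that join 2 choices, with detection on all 6 arrays, were chosen after seeing the data.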

Additional observations from a re-analysis of the deposited data

Results flagged for a closer look

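ASMM10EP3A100083387, a probe with no gene name, was set apart because its difference between genotypes was not the same in both fractions. Its supernatant values were -0.10, -0.52 and -0.08 in WT, against 1.55, 1.16 and 1.77 in cKO, and the groups did not overlap, with a difference of 1.72 ± 0.241 (SE, adjusted p = 0.0413 in limma). Against WT array 2 alone the supernatant difference was 2.01. The supernatant call over all 6 arrays depended on the processing. It held with quantile normalisation (adjusted p = 0.0351 in limma) and spike-in scaling (0.0264), but not with normexp (0.065) or array median scaling (0.0969). After normexp, loess and Aquantile the supernatant difference was 0.89 (adjusted p = 0.282 in limma). In the bound RNA the difference was -0.84 (adjusted p = 0.278 in limma). The supernatant minus bound difference was 2.56 ± 0.207 (SE, adjusted p = 0.0458 in limma), the 1 of 29112 that passed. It was 2.61 against WT array 2, with an adjusted p of 0.261 with scan as a block and 0.111 within scan 1, and without any 1 array the adjusted p was 0.0771 to 0.344 in limma. With probes detected on all 6 arrays in both channels it was 0.00121.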

How the results depend on the processing

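The count of 68 probes was 37 with normexp, 41 without dye normalisation, 18 after normexp, loess and Aquantile, 14 with the same and detection on all 6 arrays, 142 with spike-in scaling, 111 with detection on all 3 arrays of 1 genotype, 16 with no filter, 160 with trended and robust variance, 160 with array weights, and 2681 at an unadjusted p under 0.05 with a 1.5-fold change. It was 1 with scan as a block, 159 within scan 1 and 168 there with detection on all 6 arrays, and 0 to 100 without any 1 array. It moved by less than 1.5 times with array median scaling (58), quantile normalisation (74), the percentile over probes detected on all arrays (99), low values raised (101) and detection on all 6 arrays (68). A like count did not always mean the same probes. In the same order, 48, 62, 68, 37 and 24 of these calls were among the first 68, and with normexp 17 of the 37 were. Spike-in scaling moved the median of all probes to 0.23, array median scaling to -0.24, no filter to -0.15 and low values raised to -0.11.

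Same-numbered arrays of the 2 genotypes deviated together with correlations of -0.11, 0.17 and -0.10, so the replicate numbers were not taken as pairs. With the replicate number as a block 0 probes passed in limma (2986 at an unadjusted p under 0.05), and for the difference between fractions 0 passed (6321). That difference gave 2 probes with normexp, 154 with detection on all 6 arrays, and 0 with scan as a block, within scan 1 and without each array in turn. The difference in the share of detected probes was 8.00 to 18.4 percentage points without any 1 array.

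Of 33 named genes, 14 kept their direction under every alternative, and 81 of 763 gene and alternative pairs turned, of genes that did not pass the threshold. On the log2 scale the turned values were with normexp Cep41 -0.077, Cpt1a 0.057, Dnajc11 0.025, Gpi1 0.065, Gsta4 0.14, Lhfp 0.017, Mzb1 -0.16, Olfr1307 -0.052, Prdx2 0.083, Taf1a -0.073, Tm9sf1 0.29 and Uhrf1bp1l 0.22; with normexp, loess and Aquantile Gsta4 0.021, Mzb1 -0.014, Rab5a -0.065, Taf1a -0.078 and Tm9sf1 0.019; with array median scaling Bambi -0.051, Gsdmd -0.042 and Rab5a -0.080; with the percentile over probes detected on all arrays Gsta4 0.00055, Tm9sf1 0.062 and Uhrf1bp1l 0.065; with spike-in scaling Dnajc11 0.14, Gsta4 0.16, Lhfp 0.15, Olfr166 0.12, Tm9sf1 0.22 and Uhrf1bp1l 0.22; with quantile normalisation Tm9sf1 0.039 and Uhrf1bp1l 0.057; with low values raised Cep41 -0.086 and Mzb1 -0.43; with array weights Dnajc11 0.062, Gsta4 0.077, Tm9sf1 0.0039 and Uhrf1bp1l 0.15; with scan as a block or within scan 1 Acaa2 0.13, Cep41 -0.10, Cpt1a 0.74, Dnajc11 0.51, Gpi1 0.087, Gsta4 0.40, Tm9sf1 0.22 and Uhrf1bp1l 0.94. The 2 other settings with detection on all 6 arrays gave the same values where the gene was kept. Without any 1 array the genes that turned ranged as Bambi -0.034 to 0.37, Cpt1a -0.73 to 0.049, Dnajc11 -0.39 to 0.13, Duox1 -0.90 to 0.13, Gsdmd -0.12 to 0.35, Gsta4 -0.32 to 0.13, Ppara -0.14 to 0.63, Rab5a -0.14 to 0.46, Tm9sf1 -0.13 to 0.090 and Uhrf1bp1l -0.49 to 0.29. The causes were not tested.

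With 3 arrays a genotype and dim supernatant on WT arrays 1 and 3, differences of dim probes rest on signals near background.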

Other observations

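Some named genes were measured in the bound RNA but not in the supernatant. Anxa8, an annexin, was well above background on 6 of 6 arrays in the bound RNA and on 0 of 6 in the supernatant, and in the bound RNA the cKO values differed by 0.00368 on the log2 scale (adjusted p = 0.998 in limma). Kcnn2, a calcium-activated potassium channel, was well above background on 3 of 6 arrays in the bound RNA and on 0 in the supernatant. Its bound values were -1.68, -1.32 and -1.51 in WT, against -3.72, -2.71 and -2.68 in cKO, and it was detected there on all 3 WT arrays and on 0 cKO arrays, so cKO has only a bound. Kcnn2 thus entered the bound test through the WT arrays alone. Its bound difference was -1.53 (adjusted p = 0.148 in limma), which did not pass. Trp53rka, detected on all 6 arrays in the bound RNA and on 1 in the supernatant, differed there by -0.76 (adjusted p = 0.262 in limma).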
